A study of Mus musculus with 4 samples.

Results

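Urothelial differentiation transcription factors are the DNA-binding proteins that direct the ureteric epithelium to become urothelium, the layered lining that keeps urine from leaking into the wall of the ureter. The group described here holds 10 genes, named by their function in epithelia: Trp63, Foxa1, Foxa2, Grhl1, Grhl2, Grhl3, Pparg, Gata3, Elf3 and Klf5. They were found through the gene name of every non-control probe of the array, which gave 15 probes for the 10 genes, of 29875 named genes or unnamed transcripts on the array.

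As background, p63 (encoded by Trp63) marks and maintains the basal cells of stratified epithelia. FOXA1, GATA3 and PPARG act together in luminal urothelial cells, where they open and occupy the enhancers of genes such as the uroplakins, and GRHL3, KLF5 and ELF3 take part in the maturation of the layers above. The urothelium forms beside a mesenchyme that turns into smooth muscle and fibroblasts, and signals pass between both tissues while the epithelium stratifies.

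RNA came from whole ureters dissected at E14.5 (embryonic day) from mouse embryos of the NMRI strain. The mutants, called cDKO (conditional double knockout), were Tbx18(cre/+) and homozygous for floxed alleles of both fibroblast growth factor receptor genes, Fgfr1(fl/fl) and Fgfr2(fl/fl). The controls were Fgfr1(fl/?) and Fgfr2(fl/?), so they too carried floxed alleles of both receptor genes, and their label lists no cre allele. The cre sits at Tbx18, a gene of the undifferentiated ureteric mesenchyme, so the receptor genes were targeted in the mesenchymal lineage. The transcription factors named here were listed for their function in epithelia. Which cells of the ureter their RNA came from was not measured, and other cells express some of them too. On each of 4 two-colour arrays a cDKO extract was hybridised together with a control extract, both labelled female (replicates 1 and 4) or male (replicates 2 and 3). The cDKO RNA carried the red dye Cy5 on replicates 1 and 3 and the green dye Cy3 on replicates 2 and 4. Replicates 1 and 2 shared slide 1, and replicates 3 and 4 shared slide 2. Nothing in the labels says how many embryos an extract came from, so every p-value rests on the spread between these 4 pairs of extracts, which may in part be technical. That spread was taken after removal of a dye effect. For each gene it was also drawn towards the spread typical of all genes.

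The cDKO channels had median spot signals of 138.7 to 383.4 intensity units, against 169.0 to 417.3 for the control channels, and 66.1 to 71.8% of cDKO spots and 64.9 to 72.6% of control spots were well above background. A probe was called measured where, on every array, 3 or more of its 4 spots passed the scanner's background test in cDKO RNA, or did so in control RNA, and 25591 of 39429 probes met this. Fgfr1 had a log2 ratio, cDKO over control, of -0.40 ± 0.10 (SE; adjusted p = 0.117) and Fgfr2 of 0.59 ± 0.074 (adjusted p = 0.0356). Whether the brightest probes of these receptor genes lie inside the floxed parts was not analysed here, so these ratios do not check the labels. All 10 genes of a pan-epithelial marker list were measured, and so were 7 of 8 ureteric mesenchyme genes and 6 of 6 smooth muscle genes.

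The group did not move as one. Foxa2, which encodes a pioneer factor of the forkhead family best known from endodermal epithelia, rose in cDKO ureters and was the one gene of the 10 called at an adjusted p under 0.05 (limma, Benjamini-Hochberg over 19365 genes). Its probe passed the filter on dim signal through the cDKO channels only, where it was higher, and was not kept by a filter on both channels, so its entry into the test was not independent of the difference. Grhl3, a grainyhead factor needed in mice for terminal urothelial differentiation, had the lowest ratio of the group, at -0.58 ± 0.094 (SE) on the log2 scale, and just missed that threshold. Between these ends lay Gata3, Grhl1, Elf3, Foxa1 and Grhl2 with ratios above 0, and Klf5, Trp63 and Pparg with ratios below it. Over all genes 165 were called, which is 0.852%, with 0.553% higher and 0.3% lower. An unadjusted p under 0.05 was reached by 5 of the 10 genes, against 19.6% of all genes: Foxa2, Gata3 and Grhl1 with a higher ratio (11.7% of all genes) and Grhl3 and Pparg with a lower one (7.88%). The ratio had one sign on all 4 arrays for 6 of the 10, against 25.2% of all genes. Foxa1, Foxa2, Grhl1 and Grhl2 were higher on every array (13.4% of all genes) and Grhl3 and Pparg lower on every array (11.8%). The median log2 ratio of the group was 0.16, against 0.01 over all genes, and the median size without regard to sign was 0.23, against 0.10. The members and the gene lists below were chosen with earlier results of these data known. These shares and medians therefore describe the chosen genes and are not tests. In RNA from whole ureters, fewer cells of a type and less RNA per cell cannot be told apart.

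**Figure D1:**
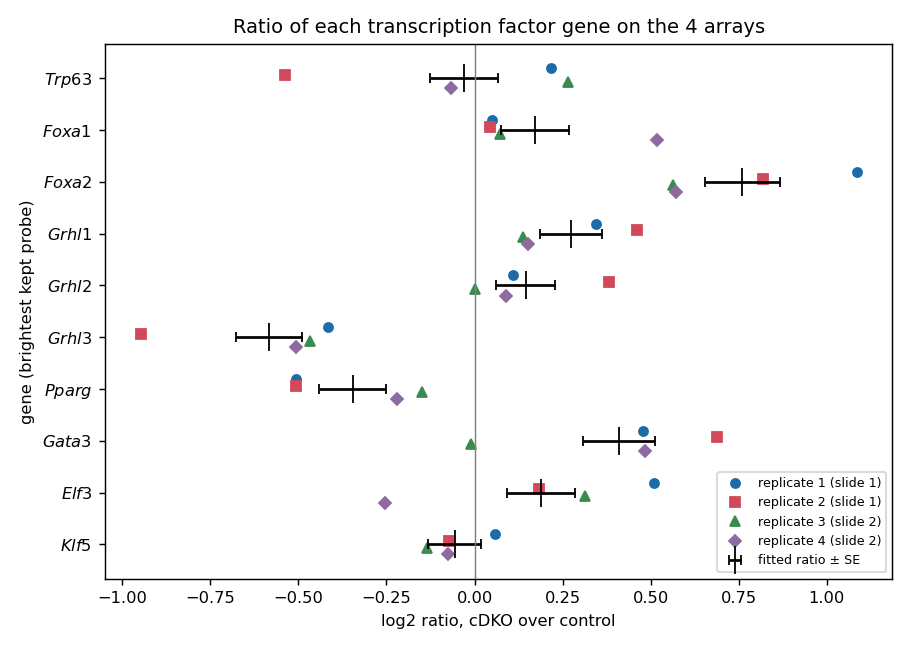
Log2 ratio of cDKO over control for each of the 10 transcription factor genes (rows, by the brightest measured probe) on the 4 arrays (coloured points), with the fitted ratio and its SE (black bars). The 4 points of Foxa2 lie between 0.56 and 1.09, those of Grhl3 between -0.95 and -0.42, and those of Trp63 on both sides of 0.

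The forkhead factors were read by different probes, so their levels are not compared. Their ratios were not tested against each other. Foxa2 was read by a probe at chr2:147868669-147868728 (mm9, minus strand) that starts at base 2022 of its transcript. Its channel level, the log2 intensity after normalization, was 8.10, 7.59, 7.43 and 7.56 in the cDKO channels of replicates 1 to 4, against 7.01, 6.77, 6.87 and 6.99 in the control channels. Every cDKO value lay above every control value. The control values were close to the bottom of the measurable range, since 6467 probes with no spot above background on any array had a median level of 6.22 in both channels, and in the control channel of replicate 4 only 2 of the 4 Foxa2 spots were well above background. The ratios on the arrays were 1.09, 0.82, 0.56 and 0.57, and the fitted log2 ratio was 0.76 ± 0.11 (SE; adjusted p = 0.0425), or 1.69-fold. The 95% interval of 0.50 to 1.02 on the log2 scale covers the spread between arrays at this background setting only. The ratio averaged 0.95 within slide 1 and 0.57 within slide 2, both above 0, and the difference between the slides had an unadjusted p of 0.0297 and an adjusted p of 0.295.

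The size of the Foxa2 ratio moved with the background correction. With a smaller offset of 16 in place of 50 in the background step the log2 ratio was 1.00, and the scanner software's own log ratio gave 1.497, outside that interval. The call was lost without replicate 1 (0.63, adjusted p = 0.126), without replicate 2 (0.70, adjusted p = 0.0889), within slide 2 alone (0.57, adjusted p = 0.382), with a sex term (adjusted p = 0.103) and with no filter on dim probes (adjusted p = 0.120). A second Foxa2 probe, which overlaps the first by 5 bases, had at most 1 of 4 spots well above background in any channel, so no fold is given for it. The 3 genes whose 4 array ratios were nearest to those of Foxa2 were Synpo2, 4122401K19Rik and Hkdc1, at Euclidean distances of 0.17, 0.17 and 0.20 log2 units among 19365 genes.

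Foxa1, the forkhead factor that works with GATA3 and PPARG in the urothelium, was measured by 1 probe. Its level was 14.23, 14.28, 14.46 and 14.73 in cDKO channels, against 14.18, 14.23, 14.38 and 14.21 in control channels. The cDKO value of replicate 4 stood above all others, and the rest overlapped. The array ratios were 0.05, 0.04, 0.07 and 0.52, averaging 0.05 within slide 1 and 0.30 within slide 2, and the fitted log2 ratio of 0.17 ± 0.096 (SE; adjusted p = 0.378) did not pass the threshold.

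Markers of other FOXA-expressing tissues were few. Of 5 gut and lung endoderm genes, Cdx1, Cdx2, Nkx2-1 and Sftpc were not measured on these arrays, and Sox17, which endothelium also expresses, had a log2 ratio of -0.24 (adjusted p = 0.175). Of the 7 measured collecting duct and ureteric bud tip genes, Tfcp2l1, a transcription factor of the collecting duct, rose by 1.08 ± 0.15 (SE, log2; adjusted p = 0.039), the other 6 did not pass the test, and the median of the 7 was 0.10. The summed linear level of the 7 was 16502 to 19440 in cDKO channels, against 9384 to 12847 in control channels, but most of it was Tfcp2l1. Without that gene the sum was 3987 to 5261 in cDKO channels, against 4059 to 4649 in control channels, so the ranges overlapped. Scnn1b and Wnt11 had the highest levels of the genes left and weighed most in that sum, so it says little about the others. Of the 7 genes, 5 had a ratio above 0 and 2 below. Besides Tfcp2l1, Avpr2 (0.44, adjusted p = 0.0842) and Ret (0.46, adjusted p = 0.154) reached an unadjusted p under 0.05 (limma). Avpr2 was higher in cDKO on every array, and Ret was not. The part of these cells in the Foxa2 result was not tested.

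**Figure D2:**
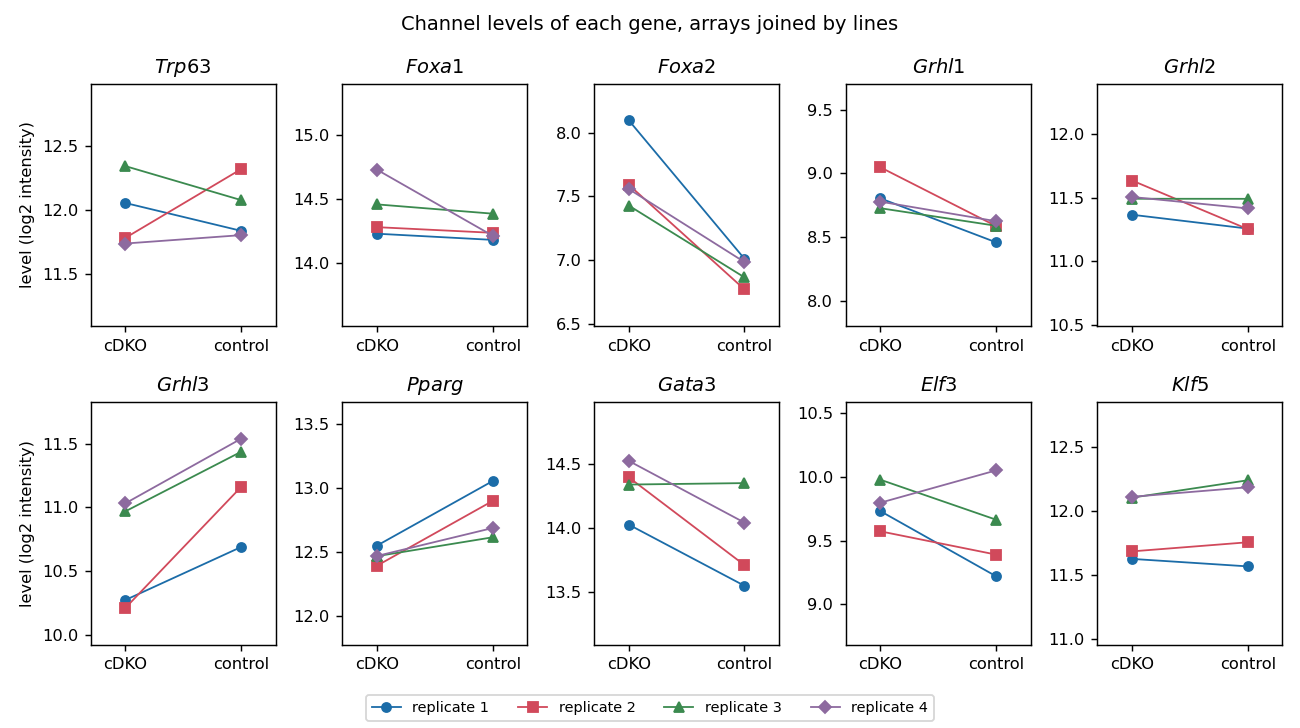
Channel level (log2 intensity after normalization) of each of the 10 genes in cDKO and control RNA, one line per array; the vertical span is the same in all panels, while the offsets differ. Foxa2 is higher in cDKO on all 4 lines and Grhl3 and Pparg are lower on all 4, whereas the lines of Trp63 and Elf3 cross.

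The 3 grainyhead-like genes did not share a direction. Grhl3 was read by a probe at chr4:135097991-135098050 (mm9, minus strand). Its level was 10.27, 10.21, 10.97 and 11.03 in cDKO channels, against 10.69, 11.16, 11.44 and 11.54 in control channels. The ranges overlapped between slides, since both channels read higher on slide 2, but the cDKO channel was below the control channel of the same array every time. The array ratios were -0.42, -0.95, -0.47 and -0.51, averaging -0.68 within slide 1 and -0.49 within slide 2. The fitted log2 ratio of -0.58 ± 0.094 (SE) corresponds to 0.667 of the control level, with a 95% interval of 0.571 to 0.780 and an adjusted p of 0.0532. Leaving out replicate 4 gave -0.69 with an adjusted p of 0.0270, and leaving out replicate 2, the lowest array, gave -0.47 with an adjusted p of 0.0949.

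Grhl1, which regulates desmosomal cadherins in the skin, had levels of 8.80, 9.05, 8.73 and 8.78 in cDKO channels, against 8.46, 8.59, 8.59 and 8.62 in control channels. Every cDKO value was above every control value, by small margins. The fitted log2 ratio was 0.27 ± 0.087 (SE; adjusted p = 0.171), with 0.40 within slide 1 and 0.15 within slide 2, so the gene did not pass the threshold.

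Grhl2, a regulator of the epithelial junction genes Cdh1 and Cldn4, was read by 2 measured probes at distant positions of the gene. The brighter probe, at chr15:37293139-37293198, had levels of 11.37, 11.63, 11.49 and 11.50 in cDKO channels, against 11.26, 11.25, 11.49 and 11.41 in control channels, and a log2 ratio of 0.15 ± 0.083 (SE; adjusted p = 0.384). The dimmer probe, at chr15:37239426-37239485, had levels of 7.52, 7.48, 7.77 and 7.84 in cDKO channels, against 7.48, 7.23, 7.70 and 7.67 in control channels, and a log2 ratio of 0.13 ± 0.071 (SE). Both probes were higher in cDKO on all 4 arrays by amounts that did not pass the test, and the brighter one averaged 0.24 within slide 1 and 0.05 within slide 2. The sequence of the dimmer probe is shown because its ratio was close to that of the brighter one at another place in the gene.

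Grhl2 probe 2: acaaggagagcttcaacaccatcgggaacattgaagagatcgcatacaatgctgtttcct

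Of 10 genes that grainyhead factors are known to regulate 8 were measured, and 1 of them passed the test. Sprr1a, which encodes a small proline-rich envelope protein of barrier epithelia, fell by 0.97 ± 0.10 (SE, log2; adjusted p = 0.0282), with array ratios of -0.98, -1.24, -0.96 and -0.70. The list was evenly split, with 4 ratios above 0 and 4 below, and its median was -0.01, with -0.11 within slide 1 and 0.05 within slide 2.

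Pparg and Gata3, partners in the luminal program, had fitted ratios on opposite sides of 0, and neither passed the threshold. Pparg encodes a lipid-sensing nuclear receptor, and its probe lies at chr6:115440213-115440272 (mm9, plus strand). Its level was 12.55, 12.39, 12.47 and 12.47 in cDKO channels, against 13.06, 12.90, 12.62 and 12.69 in control channels. Every cDKO value lay below every control value, with an SD of 0.064 over the cDKO channels and 0.20 over the control channels. The array ratios were -0.51, -0.51, -0.15 and -0.22, and the fitted log2 ratio was -0.35 ± 0.095 (SE; adjusted p = 0.137). It was -0.51 within slide 1 and -0.18 within slide 2, a difference with an unadjusted p of 0.0483 and an adjusted p of 0.347.

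Known PPARG targets were mostly below 0 without any of them passing the test. Of 10 listed genes 9 were measured, and 8 of the 9 had a ratio below 0, against 47.3% of all genes. The list's median was -0.24, with -0.23 within slide 1 and -0.24 within slide 2. The smallest p belonged to Angptl4, an inhibitor of lipoprotein lipase, at -0.38 ± 0.080 (SE, log2; adjusted p = 0.0886), and next came Fabp4, a fatty acid carrier, at -0.33 ± 0.072 (SE; adjusted p = 0.0974). Other cells that use PPARG or these targets were checked beside them. Endothelial markers, all 5 of which were measured, had a median of -0.43, with 4 of 5 below 0. Emcn, a sialomucin of endothelium, fell by 0.58 ± 0.074 (SE, log2; adjusted p = 0.0363), whereas Pecam1 had -0.43, Tek -0.44, Kdr -0.23 and Cdh5 0.08 without passing. Their summed linear level was 14274 to 16164 in cDKO channels, against 15529 to 21264 in control channels. Of 5 adipocyte genes Adipoq, Plin1 and Cidec were not measured, and Fabp4 and Lpl had ratios of -0.33 and -0.14. The part of endothelial cells in the PPARG target ratios was not tested.

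Gata3, a zinc finger factor of the nephric duct and the urothelium, was read at chr2:9779551-9779610 (mm9, minus strand). Its level was 14.03, 14.40, 14.34 and 14.53 in cDKO channels, against 13.55, 13.71, 14.35 and 14.04 in control channels. The groups overlapped. On replicate 3 the cDKO channel read just below the control channel, and the cDKO level of replicate 1 lay just below the control level of replicate 4. The array ratios were 0.48, 0.69, -0.01 and 0.48, and the fitted log2 ratio was 0.41 ± 0.10 (SE; adjusted p = 0.113), with 0.58 within slide 1 and 0.24 within slide 2. Sympathetic neurons also express Gata3. Of their 6 marker genes, all measured, none passed the test and 5 were below 0, with a median of -0.28, -0.52 within slide 1 and -0.05 within slide 2. Their summed linear level was 7177 to 15485 in cDKO channels, against 7663 to 15206 in control channels. Of 5 genes of T cells and innate lymphoid cells, Ptprc had a log2 ratio of 0.08 and Cd3e of -0.06, and Cd3g, Il7r and Rag1 were not measured. The part of these cells in the Gata3 ratio was not tested.

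Trp63 was the gene with the most probes, and they gave unlike readings. The brightest, probe 1, matches transcript variant 3 at chr16:25871159-25871218 (mm9, plus strand) and had levels of 12.05, 11.78, 12.34 and 11.74 in cDKO channels, against 11.84, 12.32, 12.08 and 11.80 in control channels. Its array ratios were 0.22, -0.54, 0.27 and -0.07, so whichever RNA carried the red dye read higher on every array, and the fitted log2 ratio was -0.03 ± 0.097 (SE; adjusted p = 0.902), with -0.16 within slide 1 and 0.10 within slide 2. The other 3 probes had ratios below 0, from -0.47 to -0.23. Probe 2, on transcript variant 4 at chr16:25892012-25892071, had levels of 9.85, 10.10, 10.14 and 10.04 in cDKO channels, against 10.32, 10.48, 10.41 and 10.35 in control channels. Here every cDKO value lay below every control value, and the array ratios of -0.46, -0.38, -0.27 and -0.31 varied little. The fit over probes gave a log2 ratio of -0.36 ± 0.075 (SE) with an unadjusted p of 0.00264 and an adjusted p of 0.0962 over 25591 probes, of which 0.594% were called. Probe 3, from a cDNA clone at chr16:25821344-25821403, had ratios of -0.87, -0.65, -0.53 and 0.16 (fitted -0.47 ± 0.14 SE; adjusted p = 0.165). Probe 4, from another clone at chr16:25867718-25867777 and the dimmest, had ratios of -0.44, -0.31, -0.09 and -0.07 (fitted -0.23 ± 0.091 SE; adjusted p = 0.248). The 4 probes read the same extracts and are not replicates of each other. They are annotated to different transcripts or clones, and whether they read different Trp63 variants was not tested.

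The brightest Trp63 probe holds a run of CAG triplets, shown here in capitals because this probe alone of the 4 has such a run.

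Trp63 probe 1: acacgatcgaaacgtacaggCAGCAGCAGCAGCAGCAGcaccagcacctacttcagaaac

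The run holds 6 CAG triplets in a row, and 6 measured probes of the array hold at least 5, each for a different gene. The other 5 are shown as windows of 30 bases, with the run in capitals, to show what they share with the Trp63 probe.

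Arhgap17 window: agcaacaaCAGCAGCAGCAGCAGaccccag

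BC051142 window: cagcatcagcatCAGCAGCAGCAGCAGCAG

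Crebbp window: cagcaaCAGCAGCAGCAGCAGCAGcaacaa

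Git2 window: aaaaacccCAGCAGCAGCAGCAGcatccgt

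Pif1 window: tgcattCAGCAGCAGCAGCAGtaggagcag

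All 6 probes had fitted dye effects above 0, red over green, of 0.21 to 0.32 on the log2 scale and 0.27 for Trp63. Over all 25591 measured probes the quartiles of the dye effect were -0.08 and 0.07, and 2.22% of probes had a dye effect at least as high as that of Trp63 probe 1. Their cDKO over control ratios lay between -0.07 and 0.03. By distance over the 4 array ratios, Pif1 ranked 6, Arhgap17 10, Crebbp 33, Git2 67 and BC051142 137 among 25590 other probes nearest to Trp63 probe 1. With such probes left out, a choice made after seeing the data, Trp63 was represented by probe 2, at -0.36 with an adjusted p of 0.0907 over genes. The mean of all 4 probes was -0.27 (adjusted p = 0.188). Whether the run itself gives the dye effect was not tested.

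**Figure D3:**
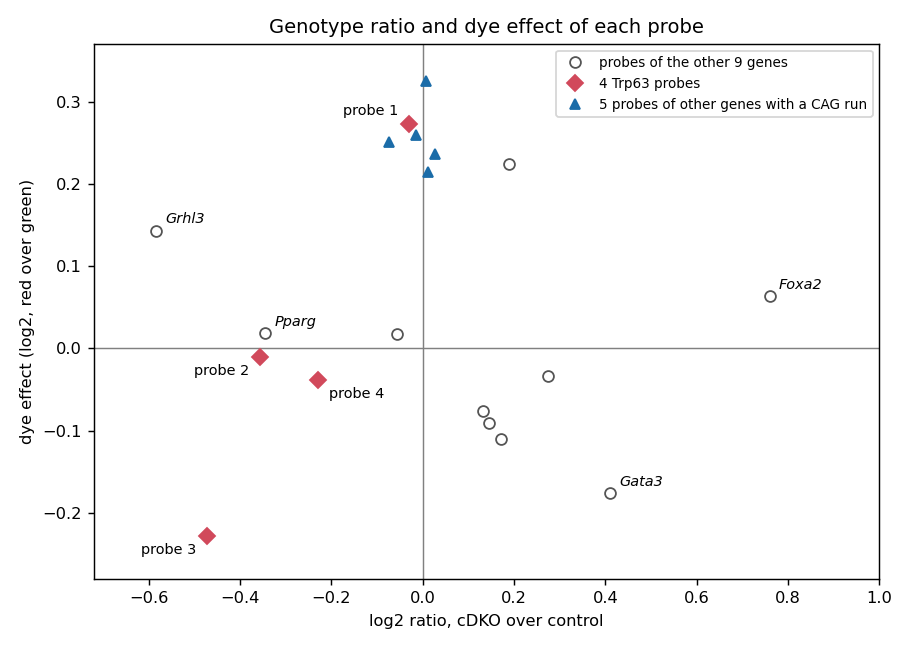
Genotype ratio (cDKO over control, horizontal, log2) against dye effect (red over green, vertical, log2) of each measured probe of the 10 genes, with the 4 Trp63 probes as diamonds and 5 probes of other genes with a CAG run as triangles. Trp63 probe 1 lies among the triangles at a dye effect of 0.27 and a ratio of -0.03, while Trp63 probes 2, 3 and 4 lie at ratios of -0.36, -0.47 and -0.23.

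Of 13 known p63 targets 10 were measured. Perp, a desmosomal membrane protein of stratified epithelia, fell by 1.05 ± 0.13 (SE, log2; adjusted p = 0.0363), with array ratios of -1.38, -1.31, -0.89 and -0.64, and the other 9 did not pass. Next by p were Sfn at -0.44 and Lamb3 at -0.40 (adjusted p = 0.0669 for both). Cdh3 followed with the opposite sign, at 0.69 (adjusted p = 0.0675) and above 0 on every array. The list had 6 ratios below 0 and 4 above, with a median of -0.05, -0.01 within slide 1 and -0.08 within slide 2. Epidermal markers, another p63-dependent tissue, were split: Ivl had a log2 ratio of -0.46, Lor 0.45, Krt10 0.12 and Krt1 -0.09, none of them called, and Flg was not on the array under that name.

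Neither of the remaining factors passed the test. Elf3, an ETS factor that acts downstream of PPARG in cultured human urothelial cells, had levels of 9.73, 9.57, 9.98 and 9.80 in cDKO channels, against 9.22, 9.39, 9.66 and 10.05 in control channels. Replicates 1 to 3 were higher in cDKO and replicate 4 was lower. The fitted log2 ratio was 0.19 ± 0.097 (SE; adjusted p = 0.337), with 0.35 within slide 1 and 0.03 within slide 2. Klf5, a zinc finger factor that mice need to form a normal bladder urothelium, had levels of 11.62, 11.68, 12.10 and 12.11 in cDKO channels, against 11.57, 11.75, 12.24 and 12.19 in control channels. Its log2 ratio was -0.06 ± 0.076 (SE; adjusted p = 0.735), with a 95% interval of -0.24 to 0.13, and averaged -0.01 within slide 1 and -0.11 within slide 2. Its probe is shown because it is the one of the 15 whose mm9 position, chr14:99702656-99712388 (plus strand), spans 9733 bases for a probe of 60, so that it reads spliced RNA.

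Klf5 probe: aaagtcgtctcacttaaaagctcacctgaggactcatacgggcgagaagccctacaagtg

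Other transcription factors of urothelium and epithelia, a list of 17 that were all measured, included 1 that rose and 1 that fell. Over all genes 0.553% rose and 0.3% fell. Elf5, an ETS factor of glandular epithelia, rose by 0.64 ± 0.073 (SE, log2; adjusted p = 0.0329), with array ratios between 0.57 and 0.70. Cebpa, a leucine zipper factor of differentiating cells, fell by 0.57 ± 0.086 (SE, log2; adjusted p = 0.049), with array ratios between -0.85 and -0.38. A ratio above 0 was found for 14 of the 17, against 52.7% of all genes, and the median was 0.13, with 0.20 within slide 1 and 0.16 within slide 2.

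Among the products of urothelial differentiation 13 of 15 listed genes were measured, of which 3 fell and none rose. Over all genes 0.3% fell and 0.553% rose by the same test. Upk1b, a tetraspanin of the uroplakin plaques on the urothelial surface, fell by 1.43 ± 0.20 (SE, log2; adjusted p = 0.0401), with array ratios of -1.67, -1.99, -1.35 and -0.72. Sprr1a, which is also among the grainyhead targets, is given above, and Krt20, the keratin of superficial cells, fell by 0.62 ± 0.081 (SE, log2; adjusted p = 0.0374), with array ratios between -0.90 and -0.47. Ratios below 0 were found for 10 of the 13, against 47.3% of all genes. The median of the products was -0.33, with -0.41 within slide 1 and -0.47 within slide 2, against 0.16 for the 10 factors. The 3 ratios above 0 were Shh at 0.53, Wnt7b at 0.21 and Krt5 at 0.12, none of them called. The summed linear level of the products was 13790 to 18475 in cDKO channels, against 21389 to 24386 in control channels, without overlap. Krt7, Upk3a and Upk1a, with mean control levels of 12.69, 12.45 and 11.75 on the log2 scale, weighed most in that sum. Their log2 ratios were -0.25, -0.91 and -0.59 (limma, adjusted p = 0.220, 0.0558 and 0.143), all below 0 but none called. Upk3a was lower in cDKO on every array. The sum does not stand for every gene of the list. The difference between the medians of these lists was not tested.

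Pan-epithelial markers, listed as a gauge of how much epithelium each extract held, were evenly split. None of the 10 passed the test, 5 were above 0 and 5 below, and the median was 0.04, with 0.02 within slide 1 and 0.07 within slide 2. Single genes of the list ranged from -0.55 for Krt19 (adjusted p = 0.0824), a keratin of simple epithelia, to 0.40 for Spint1 (adjusted p = 0.217), a protease inhibitor. An unadjusted p under 0.05 (limma) was reached by 3 of the 10, against 19.6% of all genes: Krt19 below 0, and Cldn7 (0.38) and Spint1 above it. Their summed linear level was 204823 to 274831 in cDKO channels, against 211869 to 246713 in control channels, so the ranges overlapped. Most of that sum was Krt18 and Krt8, with mean control levels of 16.66 and 15.86 on the log2 scale, so it says little about the other genes. Mesenchymal markers had a median of 0.26 and smooth muscle markers of 0.05, with no gene of either list called. Of the mesenchymal markers 5 of 7 reached an unadjusted p under 0.05 (limma). They were Sox9 (0.66), Foxf1 (0.60), Tshz3 (0.38) and Tbx18 (0.26) above 0 and Tcf21 (-0.27) below it. Of the smooth muscle markers 2 of 6 did, Tagln at 0.49 and Myh11 at -0.22.

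**Figure D4:**
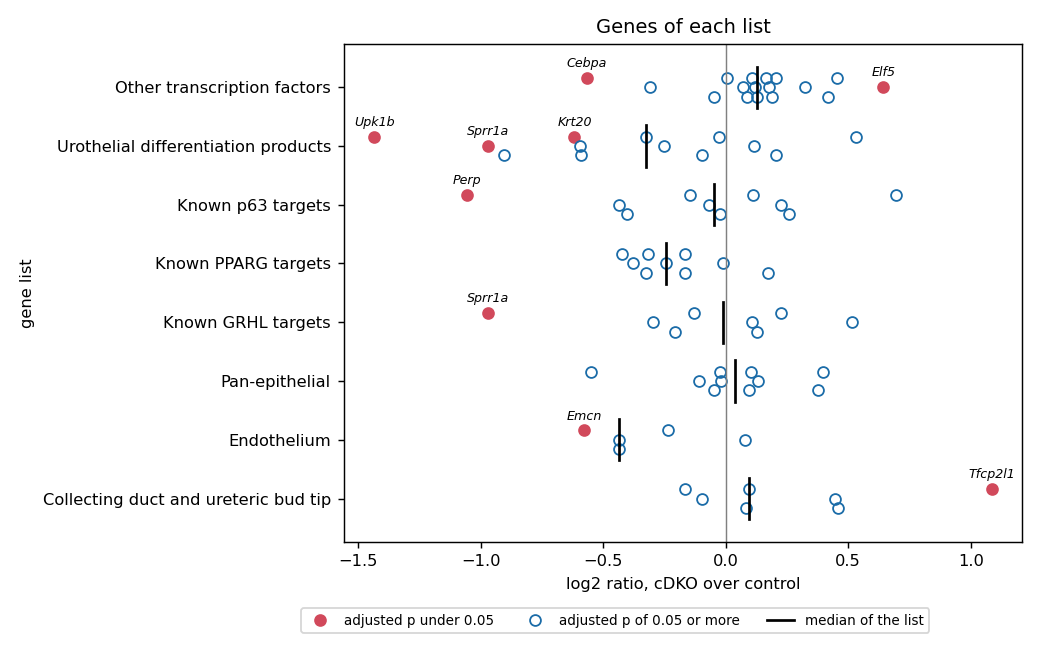
Log2 ratio of cDKO over control for the measured genes of 8 lists (rows), with the median of each list as a black bar and genes called at an adjusted p under 0.05 filled. The median is -0.33 for urothelial differentiation products, -0.24 for known PPARG targets and 0.13 for other transcription factors, against 0.04 for pan-epithelial genes.

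The slides and the sex labels were compared for each factor. None of the 10 had an adjusted p under 0.05 for the difference between slides, against 0.893% of all genes, although Foxa2, Pparg and Gata3 had an unadjusted p under 0.05 (14.3% of all genes), each with the ratio farther from 0 on slide 1. For the difference of the cDKO over control ratio between the female and the male labels, none of the 10 had an adjusted p under 0.05 (limma). Over the whole array 0 genes did, with 207 (1.07%) at an unadjusted p under 0.05. With so few arrays per label a difference could be missed. Because of the dye swap, the sex labels follow the same pattern over the 4 arrays as a dye effect that differs between slides, so these cannot be told apart.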

How the data were processed

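The authors deposited the scanner output of 4 two-colour arrays, made with Agilent Feature Extraction 10.7.3.1 per the file headers: mean spot and median local background intensities of both dyes, not normalized, and a log10 ratio of red over green from signals that the scanner software had background-subtracted and dye-normalized. A deposited value table holds signed folds, treated as a score; it followed the cDKO over control ratio (r = 0.909 to 0.945 over probes, median 1 on every array), and its centring is not stated. Probe positions are mm9, per the file headers.

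From the intensities, backgrounds were corrected with normexp (offset 50), ratios were normalized by loess within arrays (span 0.3) and turned to cDKO over control, and the spots of a probe were averaged. Levels were taken per channel after loess and Aquantile scaling. A gene was represented by its brightest measured probe, and 28328 probes were named through their accession, 3400 by symbol, 243 by synonym and 7458 as in the files. Limma 3.58.1 in R 4.3.3 was fitted with a genotype and a dye term, with 2 residual and 4.53 prior degrees of freedom, after a test on simulated data. Slide and sex terms were fitted separately.

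The members and the gene lists were chosen with earlier results of these data known. All members are named, up to 4 called genes per list of related genes (or the 2 with the smallest p), all genes of lists of 5 or fewer, and the 3 genes nearest to Foxa2. Pan-epithelial, collecting duct, endothelial, mesenchymal, smooth muscle and CAG-run genes were named after their values were seen. So were further genes of the urothelial product and p63 target lists. The number of arrays limits the precision. Probe sequences are the array's own; those of the other probes are not printed.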

Additional observations from a re-analysis of the deposited data

Results flagged for a closer look

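In 2 genes 1 array stood far from the other 3 by Dixon's test for 4 values. Foxa1 had a log2 ratio, cDKO over control, of 0.52 on replicate 4, against 0.04 to 0.07 on the other arrays (gap over range 0.940). Grhl3 had a log2 ratio of -0.95 on replicate 2, against -0.51 to -0.42 on the other arrays (gap over range 0.830). In all, 45 sets of 4 values were examined for the 10 genes, and chance picks out about 1 in 20.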

How the results depend on the processing

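The 10 genes were refitted under 18 alternatives, and 9 of the genes kept the sign of the log2 ratio in each one that gave a value. Several alternatives could not turn a sign. A changed dye, slide or sex term, filter or gene naming leaves the ratio of the same probe as it was. So does the mean of probes for a gene with 1 measured probe. There only the SE and the adjusted p can change, so these are not independent checks. By its brightest probe Trp63 turned to 0.10 within slide 2. With 1 replicate left out it lay between -0.15 and 0.088, with 0.088 without replicate 2. Foxa2 was called in 12 of 17 alternatives and had no value with the filter applied to both channels; its log2 ratio stayed 0.76 but lost the call with no filter on dim probes (adjusted p = 0.120) and with a sex term (adjusted p = 0.103), was 0.57 within slide 2, and ranged from 0.63 to 0.89 with 1 replicate left out. Grhl3 was called in 6 of 18: at -0.60 with offset 16 (adjusted p = 0.0430), at -0.58 with the filter in both channels (0.0482), no dye term (0.0496), a slide term (0.00406) and the mean of all probes of a gene (0.0488), and without replicate 4; leaving out 1 replicate gave -0.69 to -0.47. The number of the 10 genes called, 1 as reported, was 2 with offset 16, no dye term or the mean of probes, 5 with a slide term (Foxa2, Grhl3, Pparg, Gata3 and Grhl1), 0 with no filter, a sex term or within slide 2, and 0 to 2 with 1 replicate left out. Over all genes the 165 calls became 255 with median centring, 263 with offset 16, 258 with no dye term, 2418 with a slide term (1 residual degree of freedom), 2 with a sex term, 1 with no filter on dim probes, 551 within slide 1, 0 within slide 2 (limma; 1346 at an unadjusted p under 0.05) and 34 to 403 with 1 replicate left out. Leaving out replicate 1, 2, 3 or 4 gave 34, 56, 266 and 403 calls. The cause of these changes was not tested. In the control channel of replicate 4, 2 of the 4 Foxa2 spots were well above background.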
